A study of Mus musculus with 2 samples.

Results

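The nuclei described here were mouse colon nuclei that carried transcripts of the crypt base stem program, with Lgr5 or Smoc2 among them, and in which few cell division genes were detected. They were chosen by their own RNA counts: of the deposited nuclei with 400 to 5000 detected genes and at most 10% of counts from mitochondrial genes, a member had at least 3 of the 7 genes Lgr5, Smoc2, Tiam1, Sorcs2, Fstl4, Fut9 and Lrig1 detected, Lgr5 or Smoc2 among them, at least 0.2% of its counts in those 7 genes, and fewer than 3 of the 7 cell division genes Tpx2, Knl1, Top2a, Nusap1, Anln, Prc1 and Kif11. The rule gave 331 members of 9586 nuclei, 132 of them WT and 199 HIF-1α KO. The levels of these 14 genes in the members are therefore descriptions of what was selected.

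The study asked how HIF-1α in innate lymphoid cells that carry the receptor NKp46 shapes the chronically injured colon. HIF-1α KO mice were Ncr1cre+ Hif-1αfl+/fl+, in which Cre is driven by the Ncr1 (NKp46) promoter and acts in ILC1s, NK cells and NKp46+ ILC3s. The epithelium, the source of the nuclei described here, was not the target of the deletion. The WT mice were the controls, C57BL/6J is the strain the study's materials name, and all mice of both groups were 8 to 12 weeks old and received 2% dextran sodium sulfate (DSS, a colitogenic polymer) in the drinking water in 4 cycles, each with 3 d of DSS and 4 d without. Nuclei of frozen colon from 3 animals of a genotype were pooled into 1 library each, so no value below has a replicate, no test between genotypes was possible, and genotype and library cannot be told apart. All intervals are exact 95% intervals for counting error only. In a share of nuclei, more members and fewer nuclei of other kinds cannot be told apart.

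The colonic epithelium is renewed from stem cells at the base of each crypt. Wnt ligands and R-spondins from the surrounding stroma keep these cells in the stem state through Frizzled, LRP and LGR receptors, while Notch signals and falling Wnt and rising BMP signals along the crypt axis direct their daughters into absorptive and secretory fates. Lgr5, a receptor for R-spondins, is the classical marker of the cycling crypt base columnar cell, and Smoc2, a secreted calcium-binding matrix protein, belongs to the same stem signature. In the GRCm38 mouse assembly Lgr5 lies at chr10:115450311-115587780 on the minus strand and Smoc2 at chr17:14279506-14404790 on the plus strand, both as protein-coding genes. UMIs (unique molecular identifiers, which count original RNA molecules) were summed over a class of nuclei and given as counts per 1000000 UMIs of that class (CPM).

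Depth differed between the libraries. WT nuclei had a median of 2058.5 UMIs and HIF-1α KO nuclei 4197. Members were shallower than their library as a whole, with a median of 1839 UMIs (1213 to 10282) in WT and 3002 UMIs (1450 to 17335) in HIF-1α KO, and a median of 1154.5 and 1791 detected genes. The sums behind the CPM values were 313172 UMIs in WT members and 783092 UMIs in HIF-1α KO members. The libraries shared 3 cell barcodes, none of them in a member. Transcripts of the Y chromosome were found in the members of both libraries, and Xist had 0 UMIs in both.

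Crypt base stem nuclei made up 2.70% (2.27 to 3.20) of WT nuclei and 4.23% (3.68 to 4.85) of HIF-1α KO nuclei, a log2 ratio of 0.65 (0.32 to 0.98). Since more genes are detected in a deeper nucleus, each nucleus was also thinned to a fixed number of UMIs before the rule was applied. At 1000 UMIs the shares were 1.76% (86 of 4884 nuclei) and 2.35% (109 of 4639), with an interval of the log2 ratio from -0.005 to 0.84. At 2000 UMIs they were 2.42% (61 of 2525) and 3.64% (151 of 4153), with an interval from 0.15 to 1.04. The HIF-1α KO share was thus higher after thinning to either depth, but at 1000 UMIs the interval included 0. Thinning to 2000 UMIs left out shallower nuclei and kept 2525 of 4884 in WT and 4153 of 4702 in HIF-1α KO. The sets compared at that depth were therefore unlike parts of their libraries. Fut9 and Fstl4, both genes of the rule, were themselves more abundant in the HIF-1α KO library, and with these left out of the rule 117 WT nuclei (2.40%) and 165 HIF-1α KO nuclei (3.51%) were members.

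Within bins of depth the order of the libraries was not the same throughout. In nuclei under 1500 UMIs the share was 2.93% (37 of 1263) in WT and 1.04% (3 of 288) in HIF-1α KO. Between 1500 and 2500 UMIs it was 3.09% and 8.50%, and between 2500 and 4000 UMIs 2.75% and 6.15%. The intervals of WT and HIF-1α KO stood clear of each other in the latter 2 bins, but overlapped under 1500 UMIs, between 4000 and 6000 UMIs (1.39% and 2.62%) and above 6000 UMIs (1.42% and 2.43%).

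**Figure D1:**
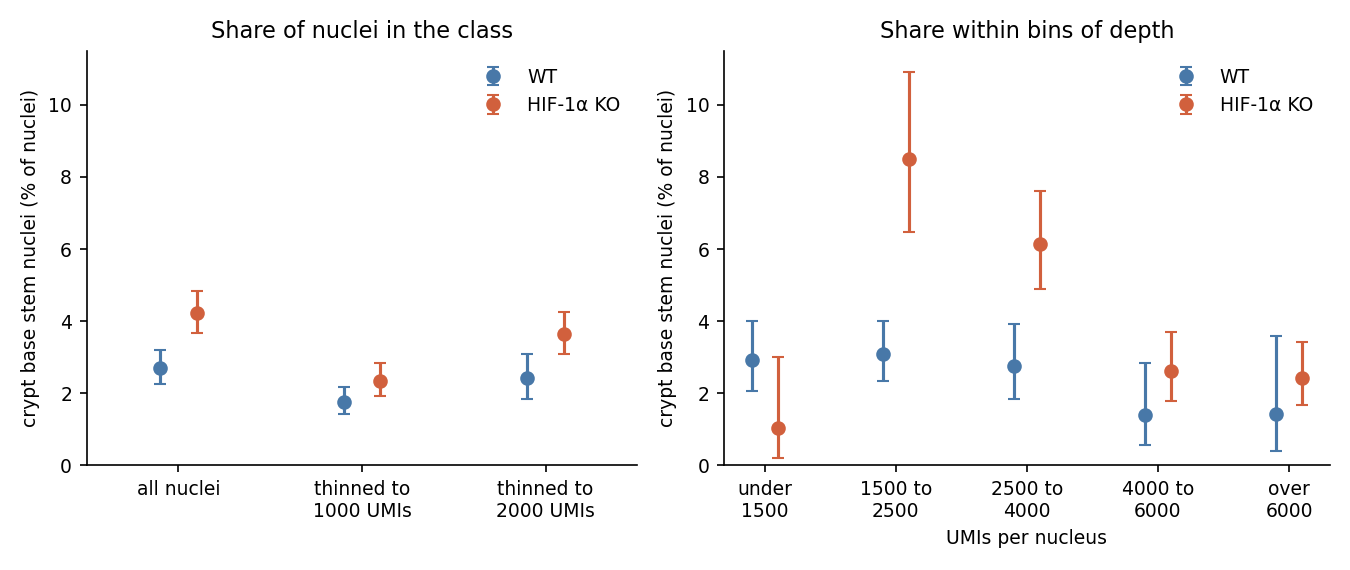
Crypt base stem nuclei as a percentage of all nuclei in the WT and HIF-1α KO libraries, for all nuclei and after thinning (left) and within bins of UMIs per nucleus (right). Points are 1 library each and bars are exact 95% binomial intervals; the libraries stood furthest apart between 1500 and 2500 UMIs (3.09% and 8.50%) and were in the reverse order, with overlapping intervals, under 1500 UMIs.

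The edges of the rule bear on how many nuclei it took. Members held from 0.204% to 1.33% of their UMIs in the 7 stem genes in WT (median 0.374%) and from 0.201% to 1.32% in HIF-1α KO (median 0.404%), against medians of 0.0677% and 0.0489% in the other nuclei. Just outside, 46 WT and 116 HIF-1α KO nuclei met the other conditions with under 0.2%, the highest of them at 0.199% and 0.198%. A further 26 and 14 nuclei had only 2 of the genes, and 169 and 147 had at least 3 genes and 0.2% but neither Lgr5 nor Smoc2. Of the members, 56 in WT and 35 in HIF-1α KO rested on exactly 3 stem genes, and all 7 genes were seen in 2 and 13 nuclei.

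Division genes set a second edge. The stem conditions alone were met by 189 WT and 301 HIF-1α KO nuclei, of which 57 (30.2%, 23.7 to 37.2) and 102 (33.9%) were left out because 3 or more division genes were detected. In the whole libraries, nuclei with 3 or more division genes were 10.1% in WT and 7.78% in HIF-1α KO. The nuclei left out were deeper than the members, with medians of 3524 and 6379.5 UMIs. Their Smoc2 level of 523 CPM in WT and 432 CPM in HIF-1α KO stood beside 508 and 539 CPM in the members, and the intervals overlapped in WT but not in HIF-1α KO (385 to 482 and 489 to 593). Lgr5 in WT stood at 97.1 CPM (61.5 to 146) in the nuclei left out and 201 CPM (155 to 257) in the members, whereas in HIF-1α KO it was 107 CPM and 116 CPM. Among the members no division gene was detected in 45 of 132 nuclei (WT) and 117 of 199 nuclei (HIF-1α KO). HIF-1α KO members were deeper, and these genes set the limit of the rule, so the libraries cannot be compared by these counts. The remaining members had 1 or 2 division genes detected, so the limit did not leave the class free of division transcripts.

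Lgr5 was seen in a minority of members. It had 63 UMIs in 38 WT nuclei (28.8%, 21.2 to 37.3) and 91 UMIs in 45 HIF-1α KO nuclei (22.6%, 17.0 to 29.1). Smoc2 carried most of the members, with UMIs in 84.8% of them in WT and 94.0% in HIF-1α KO. Both genes were detected together in 18 WT and 33 HIF-1α KO nuclei, Lgr5 without Smoc2 in 20 and 12, and Smoc2 without Lgr5 in 94 and 154.

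The other 5 genes of the rule differed in how they were spread over the libraries. Lrig1, a membrane protein that restrains ERBB receptors, was detected in 97.7% and 97.0% of members at 1986 and 1733 CPM. Tiam1, an exchange factor for the GTPase Rac, stood at 773 and 545 CPM, and Sorcs2, a sortilin-family receptor, at 495 and 554 CPM. Fut9, a fucosyltransferase that builds the Lewis X antigen, was found in 26.5% of WT members at 160 CPM and in 59.8% of HIF-1α KO members at 489 CPM (log2 ratio 1.62, 1.19 to 2.07). Fstl4, a follistatin-like protein, was found in 23.5% at 188 CPM and in 52.8% at 430 CPM (log2 ratio 1.19, 0.79 to 1.62). Both genes were also more abundant in HIF-1α KO among the cycling nuclei outside the class, with log2 ratios of 1.82 for Fut9 and 1.77 for Fstl4. Lgr5 was lower in HIF-1α KO members, with 201 CPM in WT and 116 CPM in HIF-1α KO (log2 ratio -0.79, -1.27 to -0.30), while in cycling nuclei it had 25 and 84 UMIs (1.42). The intervals of Smoc2 and Sorcs2 included 0.

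**Figure D2:**
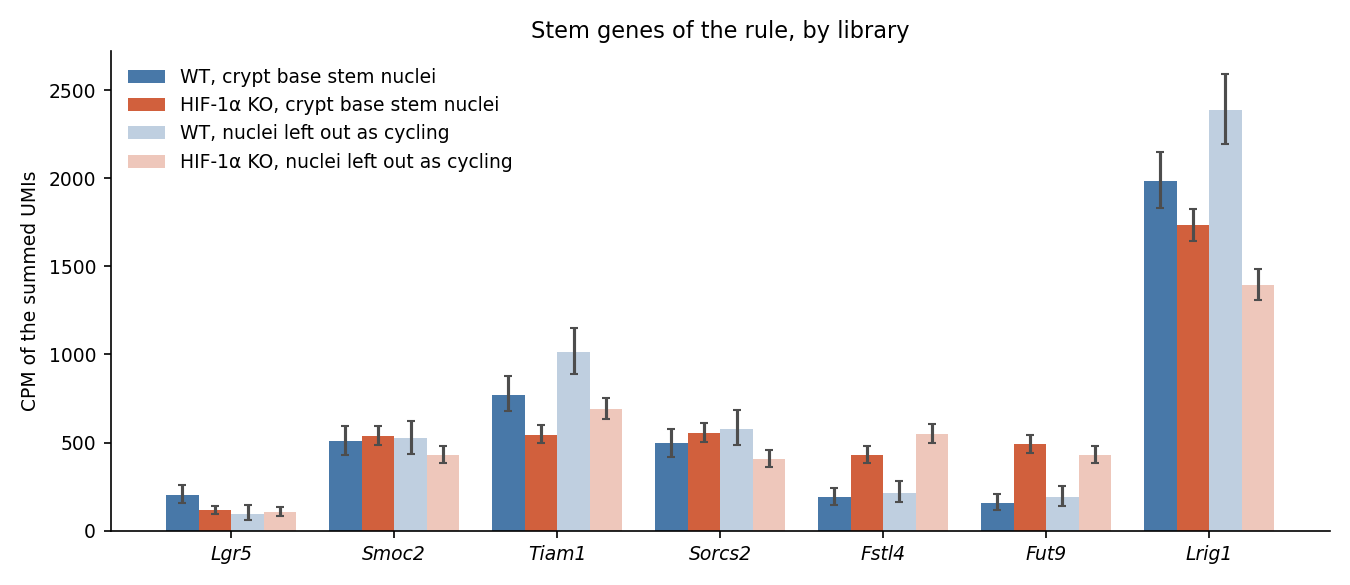
CPM of the 7 stem genes that chose the members, in the members and in the nuclei left out for 3 or more division genes, for the WT and HIF-1α KO libraries. Bars are sums over 1 library with exact 95% Poisson intervals; Fut9 and Fstl4 were higher in HIF-1α KO in both sets of nuclei, and Lgr5 was at 201 CPM in WT members against 116 CPM in HIF-1α KO members.

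Detection was set beside that in classes defined by other markers, at 1000 UMIs per nucleus. For Lgr5 and Smoc2 the excess in members follows from the rule and is given as a description. Among members Lgr5 was then detected in 19.7% (13.3 to 27.5) in WT and 11.6% (7.47 to 16.8) in HIF-1α KO. In goblet nuclei it was found in 0 of 190 in WT and 1 of 281 in HIF-1α KO, and in surface absorptive nuclei in 0 of 152 and 0 of 383. In mesenchymal nuclei it was found in 4 of 168 in WT (2.38%, 0.653 to 5.98) and 0 of 97 in HIF-1α KO. Without thinning the members' shares were 28.8% and 22.6%, at median depths of 1839 and 3002 UMIs, and those of goblet nuclei 0.526% and 2.85%, at 2997.5 and 5472 UMIs. Cycling nuclei had Lgr5 in 1.26% (WT) and 2.81% (HIF-1α KO) of them after thinning. Smoc2 after thinning was found in 53.8% and 46.7% of members, in 10.7% and 7.22% of mesenchymal nuclei and in at most 2.63% of goblet or surface absorptive nuclei of either library.

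Genes that the rule did not use were then compared with all other nuclei of the same library. The 20 genes with the highest ratio held all 7 stem genes of the rule and 13 others, and none of them was a marker of another class. Kcnq1, a potassium channel subunit, led the genes outside the rule. It had 183 UMIs in WT members (584 CPM) and 648 UMIs in HIF-1α KO members (828 CPM), 3.10 and 4.44 times the level in the other nuclei. Rgmb, a coreceptor for BMP ligands, stood at 220 and 240 CPM, 2.76 and 3.02 times the other nuclei. Arhgef26 was 2.78 and 3.17 times higher, Tspan5, a tetraspanin that partners the Notch protease ADAM10, 2.60 and 3.03 times, and Mcc, a gene mutated in colorectal cancer, 2.31 and 2.78 times. Pola1, the catalytic subunit of DNA polymerase α, was 2.19 and 2.45 times higher. The remaining genes of this group were Baiap2l2, Mecr, Kank1, Taco1, Eefsec, Gm47283 and Tmem131l, and each was at least 2.14 times higher in either library.

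A list of 22 other stem and progenitor genes was only partly measured. Of these, 13 had at least 50 UMIs in the members, and 11 of the 13 were at least 1.5 times the level of the other nuclei in both libraries. The share of all genes at that ratio is not given here, so the count is a description only. Ephb2, the receptor that positions cells along the crypt, was 2.12 and 2.02 times higher in WT and HIF-1α KO, Znrf3 and Rnf43, the ligases that remove Frizzled receptors from the membrane, 1.94 and 2.27 times and 1.81 and 2.19 times, and Cdk6, a G1 kinase, 1.88 and 2.62 times. Prom1 stood at 1.05 and 0.744 times. Hopx, a marker of a slowly cycling position above the base, stood at 1.31 times in WT and 3.74 times in HIF-1α KO.

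Other genes of the stem and progenitor list had few or no UMIs. Ascl2, the transcription factor of the crypt base, had 2 UMIs in the members of each library, below the floor of 3 counts used here. Axin2, a feedback target of Wnt, had 18 and 24 UMIs (57.5 and 30.6 CPM). After thinning it was detected in 5.30% (2.16 to 10.6) of members in WT and 3.02% (1.11 to 6.45) in HIF-1α KO. In cycling nuclei it was found in 3.56% (2.085 to 5.63) and 2.25% (0.975 to 4.38), and in goblet nuclei in 0.526% and 0.712%. The members' intervals overlapped those of both classes in each library. Olfm4 and Tnfrsf19 had 0 UMIs in both, where the floor of 3 counts corresponds to 9.58 CPM in WT and 3.83 CPM in HIF-1α KO.

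Set against the neighbouring crypt classes, the ratios were smaller. Kcnq1 was 1.64 and 1.63 times its level in the cycling nuclei and 1.69 and 1.94 times that in nuclei defined by Htr4 and Cftr, the crypt enterocyte class. Rgmb was 1.69 and 1.68 times the cycling level. Ephb2 (1.11 and 1.17 times) and Znrf3 (1.28 and 1.04 times) were close to the cycling level. After thinning, Kcnq1 was detected in 44.7% and 46.7% of members and in 26.6% and 47.6% of the Htr4 and Cftr nuclei. The intervals overlapped in WT (36.0 to 53.6 and 16.3 to 39.1) and in HIF-1α KO (39.6 to 53.9 and 36.4 to 58.9). Htr4 and Cftr were themselves expressed in members, at a summed 1249 CPM in WT and 1932 CPM in HIF-1α KO, and 1 and 6 members also met the rule of that class.

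**Figure D3:**
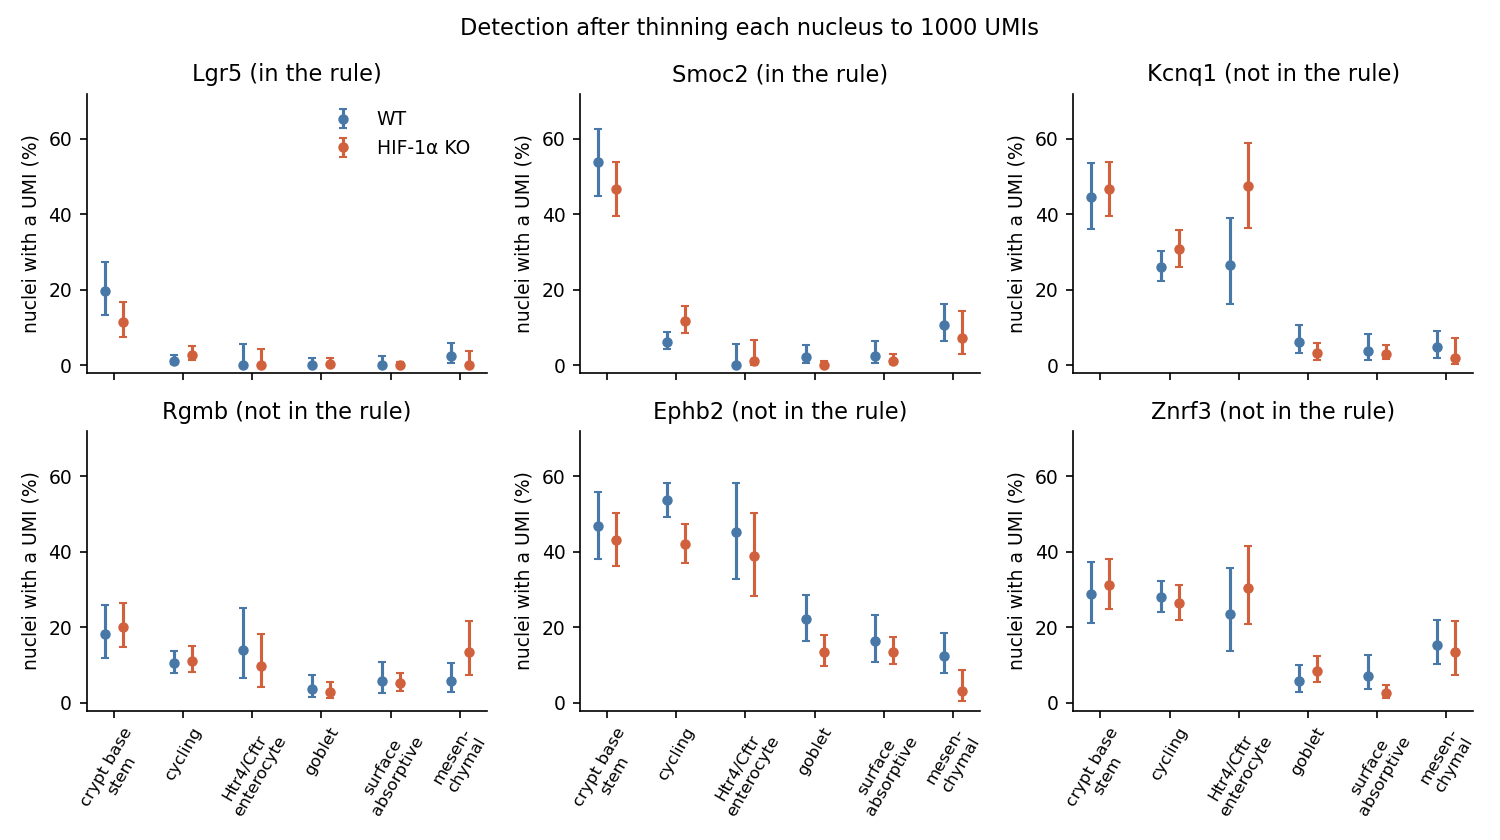
Percentage of nuclei with at least 1 UMI of Lgr5 and Smoc2, which chose the members, and of Kcnq1, Rgmb, Ephb2 and Znrf3, which did not, in 6 classes of nuclei after each nucleus was thinned to 1000 UMIs. Points are 1 library each with exact 95% binomial intervals; Kcnq1 was found in 44.7% (WT) and 46.7% (HIF-1α KO) of members and in under 7% of goblet and surface absorptive nuclei.

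Splitting the members by Lgr5 and Smoc2 left Kcnq1 uneven. In WT it stood at 900 CPM (646 to 1222) in nuclei with both genes, 557 CPM (465 to 661) with Smoc2 alone and 362 CPM (193 to 619) with Lgr5 alone. The WT interval with Smoc2 alone overlapped both others, while those with both genes and with Lgr5 alone did not overlap. In HIF-1α KO the levels were 1177 CPM (1003 to 1373), 790 CPM (720 to 865) and 326 CPM (190 to 523) in that order, with none overlapping. Ephb2 did not follow that order, with 1186, 906 and 1254 CPM in WT and 693, 643 and 538 CPM in HIF-1α KO. Mki67, a marker of dividing cells, was at 87.9, 99.2 and 195 CPM in WT and at 108, 94.5 and 76.8 CPM in HIF-1α KO, and the intervals overlapped within each library. The nuclei with Lgr5 alone were few, 20 and 12, and had medians of 1486 and 3018 UMIs.

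Markers of other cell types in the members differed between the libraries, not always as in the other nuclei. Summed mesenchymal markers stood at 575 CPM in WT and 301 CPM in HIF-1α KO members (996 and 512 CPM in the other nuclei), and neuron and glia markers at 789 and 258 CPM (1137 and 600 CPM). Immune markers stood at 233 and 115 CPM in members and at 211 and 213 CPM in the other nuclei. Endothelial markers were at 60.7 and 81.7 CPM in members and at 171 and 68.4 CPM in the other nuclei. Of the 8 mesenchymal markers 3 had at least 50 UMIs, and all 3 had ratios below 0, Cald1, an actin regulator of smooth muscle, past 2-fold (40 UMIs each, -1.32, -0.85 in the other nuclei). Summed goblet markers were at 2337 and 2684 CPM in members, below the 3538 and 4433 CPM of the other nuclei, and all 9 had UMIs in both libraries. At least 3 goblet markers were seen in 44 of 132 members (WT) and 178 of 199 members (HIF-1α KO), though only 1 member, in WT, met the goblet rule. These counts were not thinned, and HIF-1α KO members were deeper (medians of 1839 UMIs in WT and 3002 UMIs in HIF-1α KO), so the libraries cannot be compared by them. Tuft markers were near 0 (9.58 and 20.4 CPM). Mitochondrial transcripts took 0.114% of WT and 0.200% of HIF-1α KO member UMIs. Gm42418 and AY036118, which overlap a ribosomal RNA repeat, took 13.3% and 5.48%. Where leaving out marked nuclei or these transcripts ended a 2-fold call named below, the value is given beside it.

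Between the libraries, 4423 genes had at least 50 UMIs in the members of both together, and 217 of them (4.91%) were at least 2-fold higher in HIF-1α KO members and 82 (1.85%) at least 2-fold lower. The counting interval excluded 0 for 214 of the 217 and all 82. The median log2 ratio of all 4423 genes was 0.16. It was 0.03 when Gm42418 and AY036118 were taken out of the totals, a scaling that gave 164 genes higher and 110 lower. The share of higher genes among those past 2-fold was 72.6% in the first case and 59.9% in the second. That share also depends on the minimum of 50 UMIs, which was set on the sum of both libraries. With more UMIs in HIF-1α KO members, a gene higher there could pass through that library alone, and no direction is read from the share. With no minimum, among 12322 genes with a UMI in both libraries, 1145 were higher and 1880 lower. Of the 217 genes, 32 (14.7%) were also at least 2-fold higher in the other nuclei of HIF-1α KO, and of the 82 genes, 31 (37.8%) were also at least 2-fold lower there. The share of all 4423 genes past 2-fold in the other nuclei is not given here, so these shares are not read as high or low.

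The 12 genes higher in HIF-1α KO members by the bound of the interval nearest 0 included 1 gene of the rule, Fut9, and none of the other stem genes. Nxpe2, of the neurexophilin family, had 5 UMIs in 3 WT nuclei and 102 UMIs in 54 HIF-1α KO nuclei (16.0 and 130 CPM, log2 ratio 3.03, 1.76 to 4.68). The other nuclei had a ratio of 0.50 for this gene and cycling nuclei 1.24. Rhoq had 7 and 103 UMIs (log2 ratio 2.56, 0.83 in the other nuclei). Lrrc4, a leucine-rich repeat adhesion protein, had 4 and 70 UMIs (2.81), and at 1.70 it was past 2-fold in the other nuclei too. Agmo, an ether lipid oxidase, had 3 and 51 UMIs (2.77, 1.14 to 5.09), and its ratio in the other nuclei was 0.03. Each of these 4 was found in 1.52% to 5.30% of WT members and in 15.6% to 31.2% of HIF-1α KO members.

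Dlg2, a scaffold protein best known from synapses, had 44 UMIs in WT and 339 UMIs in HIF-1α KO members (141 and 433 CPM, log2 ratio 1.62) against a ratio of 0.20 in the other nuclei. It was found in 20.5% and 50.8% of members without thinning, and 42 of its HIF-1α KO UMIs lay in 1 nucleus. The Dlg2 ratio was also above 0 in the Htr4 and Cftr nuclei (1.08) and cycling nuclei (0.84). In goblet and surface absorptive nuclei it was -0.34 and -0.15. Pde8b, a cAMP phosphodiesterase, had a log2 ratio of 1.64, Mertk, a receptor kinase for the clearance of dying cells, 1.88, Ms4a12, a colonocyte membrane protein, 1.73, and Chpt1, a phospholipid synthesis enzyme, 1.85. For these 4 the other nuclei also had ratios from 0.97 to 1.47. The largest ratio of the 12 belonged to 2610318M16Rik, an RNA annotated as antisense, with 3 and 102 UMIs (log2 ratio 3.77, 2.18 to 6.07). It was at 2.56 in the other nuclei, and whether strand was used in counting is not given in the sources used here.

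Meg3, an imprinted long noncoding RNA, was concentrated in few nuclei. It had 70 UMIs in WT and 485 UMIs in HIF-1α KO members (log2 ratio 1.47, 1.11 to 1.85), and was found in 18.9% and 18.1% of nuclei. In HIF-1α KO, 4 nuclei held 383 of the 485 UMIs, with 128, 112, 90 and 53 UMIs each, and the first of them was the deepest member of its library. In WT, 1 nucleus held 35 of the 70. Rian, a neighbouring imprinted transcript named here after its values were seen, had the same 4 nuclei as its highest in HIF-1α KO, with 80 of its 112 UMIs. Of the 4 HIF-1α KO members highest in Dlg2, 3 were among these nuclei. In members with 1500 to 4000 UMIs the Meg3 ratio was -0.29, and when each nucleus was weighted equally it was 0.80.

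The 12 genes lowest in HIF-1α KO members were led by Pde10a, a phosphodiesterase, with 38 UMIs in WT and 12 in HIF-1α KO (log2 ratio -2.99, -1.90 in the other nuclei). Of its WT UMIs 19 lay in 1 nucleus that also carried 4 of the 8 mesenchymal markers. Kcnip4, a potassium channel partner of neurons, had 175 and 115 UMIs (-1.93), of which 49 and 29 lay in 1 nucleus each, again with 4 mesenchymal markers. Its ratio was -0.99 in the other nuclei and 0.47 in mesenchymal nuclei. In cycling, Htr4 and Cftr, goblet and surface absorptive nuclei it was -2.125, -2.05, -1.36 and -2.08, so the lower level was not particular to the members. Flna, an actin crosslinker (34 and 17 UMIs, -2.32), and Bnc2, a zinc finger protein (39 and 23 UMIs, -2.08), were also lower in the other nuclei, at -1.58 and -1.15.

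Nrg1, a ligand of ERBB3 and ERBB4, and Ctnna2, an α-catenin of neurons, were concentrated in members that carried enteroendocrine markers. Members with at least 3 of 7 such markers numbered 3 in WT and 5 in HIF-1α KO, and they held 116 of 188 and 75 of 126 Nrg1 UMIs and 47 of 62 and 30 of 40 Ctnna2 UMIs. Without these nuclei Nrg1 stood at 239 CPM in WT and 67.7 CPM in HIF-1α KO, and Ctnna2 at 49.8 and 13.3 CPM. The log2 ratios over all members were -1.90 and -1.95, and Nrg1 was at -0.48 in members with fewer than 2 mesenchymal and fewer than 2 immune markers. In cycling nuclei Ctnna2 had a ratio of 1.35 and Nrg1 one of -2.06. In the other nuclei Ctnna2 was at -0.32 and Nrg1 at -0.96.

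Tipin, a protein of the replication fork, had 42 UMIs in WT and 25 in HIF-1α KO members (134 and 31.9 CPM, log2 ratio -2.07, -1.09 in the other nuclei). Ndc1, a nuclear pore protein, had 34 and 18 UMIs (-2.24, -1.19 in the other nuclei). Gm19951 (-1.87), AY036118 (-1.51), D5Ertd579e (-1.57) and Gm42418 (-1.26) were lower in the other nuclei by a similar amount, between -1.38 and -1.86.

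**Figure D4:**
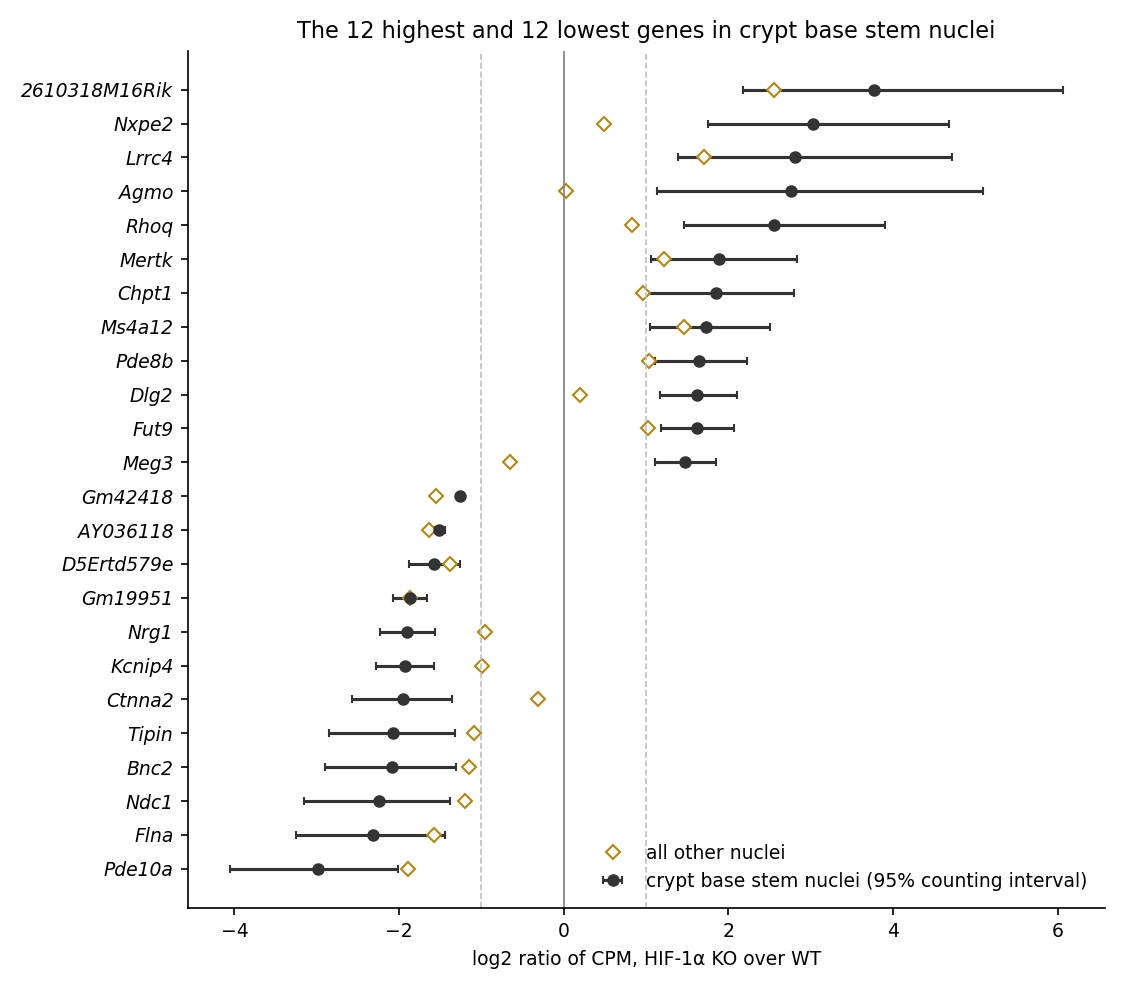
Log2 ratio of CPM, HIF-1α KO over WT, of the 12 highest and 12 lowest genes in crypt base stem nuclei (filled circles with exact 95% counting intervals) and of the same genes in all other nuclei (open diamonds); dashed lines mark 2-fold. Meg3 was at 1.47 in the members and -0.65 in the other nuclei, while Gm19951 was at -1.87 and -1.86.

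The pathways of the stem niche were read against the 4.91% of all genes tested that were past 2-fold higher and the 1.85% that were lower, and with so few genes measured a list's count cannot be told apart from that background. Of 29 Wnt receptors and transducers, 12 had at least 50 UMIs, none was past 2-fold in either direction, and their median log2 ratio was 0.03 beside 0.16 for all genes. Lgr4, the broadly expressed relative of Lgr5, had 123 UMIs in WT and 496 in HIF-1α KO (393 and 633 CPM, log2 ratio 0.69, 0.40 to 0.99). Tcf7l2, the main TCF factor of the crypt, stood at 1421 and 1666 CPM (0.23), Gsk3b, a kinase of the β-catenin destruction complex, at 291 and 432 CPM (0.57) and Ctnnb1, which encodes β-catenin, at 153 and 147 CPM (-0.06). Of 14 feedback inhibitors, Rnf43 (0.31), Tle4 (0.06) and Znrf3 (-0.10) were measured and none was past 2-fold. Notum, a secreted Wnt deacylase, and Wif1 had 0 UMIs.

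Among the other stem genes none of 13 was past 2-fold, and their median ratio was 0.00. Slc12a2, the basolateral Na-K-Cl cotransporter, was at 626 CPM in WT and 932 CPM in HIF-1α KO (0.57, 0.35 to 0.81), and Kcnq1 at 0.50 (0.26 to 0.75). Ephb2 was the lowest, with 987 and 645 CPM (-0.61, -0.82 to -0.40), and its ratio in the other nuclei was -0.55. Hopx had 11 and 51 UMIs (0.89, -0.07 to 1.98).

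In the Notch pathway, 9 of 23 genes were measured and none was past 2-fold, with a median of 0.06. Maml3, a coactivator of Notch targets, held most of the list's UMIs and stood at 1169 CPM in WT and 1940 CPM in HIF-1α KO (0.73, 0.57 to 0.90). Its ratio in the other nuclei was 0.41. Hes1, the Notch target that holds back secretory fate, had 19 and 61 UMIs (0.36, -0.40 to 1.19). Rbpj, the DNA-binding partner of Notch, was at -0.27 and Jag1, a ligand, at -0.53, both with intervals that included 0.

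Of 19 BMP receptors, Smads and targets, 11 were measured, 1 was lower and none higher by 2-fold, with a median of 0.21. Acvr2a, a type II receptor of activins and BMPs, had 55 UMIs in each library (176 and 70.2 CPM, log2 ratio -1.32, -1.89 to -0.76). The other nuclei had -0.15 for it, and cycling and goblet nuclei -0.27 and 0.03. Smurf2, a ligase that degrades receptors and Smads, was at 163 and 291 CPM (0.84), Smad1, a BMP effector, at 112 and 179 CPM (0.68) and Smad4, the common Smad, at 230 and 330 CPM (0.52). Id1, a BMP target, was at 54.3 and 57.5 CPM.

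Integrins and matrix receptors had 13 of 18 genes measured, with 1 higher and none lower. Itgb4, the β4 chain of the hemidesmosome, had 12 UMIs in WT and 74 in HIF-1α KO (38.3 and 94.5 CPM, log2 ratio 1.30, 0.41 to 2.32), while its partner Itga6 was at 533 and 633 CPM (0.25). Itgb4 was at 0.34 in the other nuclei and at 0.02 in the cycling nuclei. In the EGF family, 6 of 12 genes were measured, with Erbb3 higher (11 and 58 UMIs, 1.08, 0.13 to 2.16, or 0.95 without Gm42418 and AY036118 in the totals) and Nrg1 lower. Egfr was at 163 and 220 CPM (0.43), and Lrig3, a relative of Lrig1, at 233 and 360 CPM (0.63).

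Division genes had ratios below 0 with 1 exception. Of 26 replication and mitosis genes outside the rule, 10 were measured, 2 were lower by 2-fold and none higher, and the median was -0.47 in the members and -0.73 for the same genes in the other nuclei. Set against the median of all genes the list stood at -0.63, but at -0.12 with members thinned to 1000 UMIs, at -0.18 in members with 1500 to 4000 UMIs and at -0.35 in members with few mesenchymal and immune markers. Kif15, a spindle kinesin, was at 92.6 CPM in WT and 26.8 CPM in HIF-1α KO (-1.79), and Diaph3, an actin nucleator of dividing cells, at 169 and 75.3 CPM (-1.17, or -0.45 in members with 1500 to 4000 UMIs). Top2a, a topoisomerase and a gene of the rule, was at 153 and 74.1 CPM (-1.05). Mki67 was at 109 and 95.8 CPM (-0.18, -0.78 to 0.45) and Pola1 at 268 and 178 CPM (-0.60). Ccnd3, a G1 cyclin, was the only gene of the list above 0 (0.41, -0.05 to 0.89). Since members were limited to fewer than 3 division genes, and deeper nuclei reach that limit more easily, the levels of these genes are not independent of the rule.

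Regenerative and Yap genes had 5 of 21 measured and none past 2-fold, with a median of -0.38. Yap1, the transcriptional effector of the Hippo pathway, was at 252 and 166 CPM (-0.60) and S100a6, a calcium-binding protein, at 588 and 451 CPM (-0.38). Ly6a, a marker of epithelium in repair, had 15 and 49 UMIs (0.39, -0.47 to 1.33).

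Fate genes were present in members at modest ratios. Of 18 secretory genes, 12 were measured, with 1 higher and 1 lower and a median of 0.33, beside 0.52 for the same genes in the other nuclei. Ern2, the IRE1β sensor of mucus-making cells, had 22 and 119 UMIs (1.11, 0.45 to 1.84) and 1.02 in the other nuclei. It was at 0.99 without Gm42418 and AY036118 in the totals and at 0.80 in members with few mesenchymal and immune markers. Reg4, a marker of deep crypt secretory cells, had 34 UMIs in 7 WT nuclei and 35 UMIs in 27 HIF-1α KO nuclei (-1.28). The 4 highest WT nuclei held 28 of the 34, and with each nucleus weighted equally the ratio was -0.31. Spdef, the transcription factor of secretory maturation, was at 89.4 and 135 CPM (0.60, -0.01 to 1.25). Of 17 absorptive genes, 12 were measured, with Car1, a carbonic anhydrase, lower (153 and 63.8 CPM, -1.26, -0.94 in the other nuclei) and none higher. Hnf4g, a nuclear receptor of enterocytes, was at 527 and 807 CPM (0.62) and Hnf4a at 536 and 613 CPM (0.19). Htr4, a serotonin receptor, was at 600 CPM in WT and 1105 CPM in HIF-1α KO (0.88, 0.65 to 1.12), with 0.57 in cycling nuclei and 0.35 in the class it defines.

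Of 23 HIF, glycolysis and hypoxia genes found, 11 were measured, 1 was higher and none lower, with a median of 0.33 beside 0.46 in the other nuclei. Hif1a itself was at 134 CPM (96.7 to 181) in WT and 137 CPM (112 to 165) in HIF-1α KO members, a log2 ratio of 0.03. This is no check of the deletion, which the Ncr1 promoter places in lymphoid cells. Epas1, which encodes HIF-2α, had 8 UMIs in WT and 77 in HIF-1α KO (25.5 and 98.3 CPM, 1.94, 0.89 to 3.21). It was found in 5.30% and 25.1% of members, and its ratio was 0.66 in the other nuclei, 0.86 in cycling and 0.55 in surface absorptive nuclei. Hk2, a hexokinase, was at -0.05, Pkm, a pyruvate kinase, at 0.74 and Vegfa, the angiogenic ligand, at -0.32, all with intervals that included 0.

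Receptors for signals from innate lymphoid cells were sparse. Of 26 cytokine receptors and signal genes, 10 were measured and none was past 2-fold, with a median of 0.26 in the members and 0.35 in the other nuclei. Stat3, which acts below the IL-22 receptor, was at 192 and 278 CPM (0.54, 0.12 to 0.98), Ifngr1 at 70.2 and 85.6 CPM (0.28) and Ifngr2 at 28.7 and 54.9 CPM (0.93, -0.12 to 2.16), the last pair forming the interferon-γ receptor. Il1r1 had 13 UMIs in 13 WT nuclei and 52 UMIs in 18 HIF-1α KO nuclei (0.68), of which 23 lay in 1 nucleus. Interferon and MHC genes had 3 of 20 measured and AP-1 and immediate-early genes 4 of 17, none past 2-fold. Klf4, a factor of goblet maturation in that list, was at 0.60 (-0.06 to 1.31) and Irf1 at 0.41. No posterior Hox gene reached 50 UMIs.

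**Figure D5:**
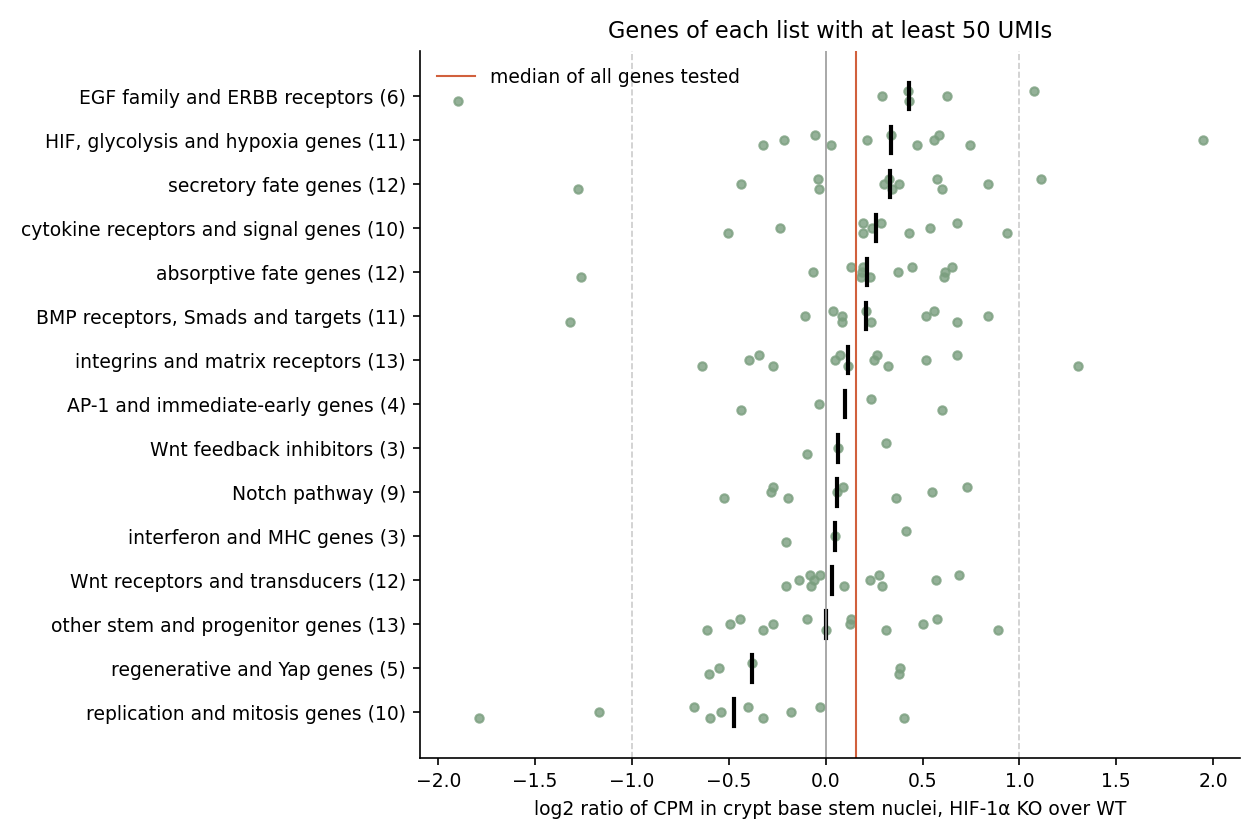
Log2 ratio of CPM in crypt base stem nuclei, HIF-1α KO over WT, for each gene of a list with at least 50 UMIs (green points; their number after the list's name), with the list's median as a black bar and the median of all genes tested as a red line at 0.16. Medians ran from -0.47 for replication and mitosis genes to 0.43 for the EGF family, an order that did not hold at matched depth, where regenerative and Yap genes stood lower than replication genes.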

How the data were processed

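Nuclei from frozen mouse colon were profiled with the 10x Genomics 3′ v3.1 chemistry. The authors deposited, per library, a filtered matrix of raw UMI counts per gene and nucleus. Cell Ranger 7.0.1 and mm10 are named in the submitters' processing notes, and whether intronic reads were counted is not given in the sources used here. Of the 32285 gene IDs, 32235 were found in GENCODE M21 (GRCm38), which gave positions and gene types. The members and gene lists were chosen with earlier results of these data known.

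Of 9668 barcodes, 9586 passed the filter (400 to 5000 genes, at most 10% mitochondrial counts). Depth was 13492810 UMIs in the WT and 25489277 UMIs in the HIF-1α KO library. No doublet caller was used. Comparison classes were nuclei with at least 3 of 7 cycling genes, with both Htr4 and Cftr (0.5% of UMIs or more), at least 4 goblet markers (1.5%), at least 4 surface absorptive markers (0.6%) or at least 3 mesenchymal markers (0.7%); these limits were set after seeing the data, members were removed, and nuclei that met several rules (17 and 15) were left out.

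UMIs were summed per class and library. Intervals at 95% were exact: Poisson for CPM, Clopper-Pearson for shares and conditional for the log2 ratio of a gene. A UMI sum under 3 counts was read as not measured. With 1 library per genotype no test was made. A gene was called by a 2-fold difference among genes with at least 50 UMIs. Genes named were those of the rule, list genes past 2-fold and the list genes with most UMIs, the 12 highest and 12 lowest called genes by the interval bound nearest 0, the 20 genes highest over other nuclei (at least 50 UMIs in members of each library), and genes that mark sex or RNA quality. Other list genes were named after their values were seen. Alternatives covered depth, the rule's limits, the UMI minimum, scaling (TMM of edgeR 4.0.16, median of ratios) and weighting of nuclei. Python 3.11.15, NumPy 2.4.6, SciPy 1.17.1 and R 4.3.3 were used.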

Additional observations from a re-analysis of the deposited data

Results flagged for a closer look

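Meg3 and Ctnna2 had ratios past 2-fold in crypt base stem nuclei and past 2-fold in the opposite direction in another epithelial class, a difference between classes that was not tested. Meg3 had a log2 ratio of 1.47 in members, -1.30 in goblet nuclei (405 UMIs in each library) and -1.09 in surface absorptive nuclei (44 UMIs in WT and 83 in HIF-1α KO). In the members 79.0% of the HIF-1α KO UMIs lay in 4 nuclei. Ctnna2 had a ratio of -1.95 in members and 1.35 in cycling nuclei (45 and 144 UMIs), and 75.8% of its WT and 75% of its HIF-1α KO UMIs in members lay in nuclei with at least 3 enteroendocrine markers.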

How the results depend on the processing

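The share of crypt base stem nuclei was higher in HIF-1α KO under all 11 alternatives, with log2 ratios from 0.42 to 1.16. The lowest, thinned to 1000 UMIs, had an interval that included 0 (-0.005 to 0.84). The highest, with at least 4 stem genes required (1.56% and 3.49% of nuclei), lay outside the interval of the reported ratio of 0.65. The alternative limited to nuclei with 1500 to 6000 UMIs left out those under 1500 UMIs, where the order was reversed (2.93% in WT and 1.04% in HIF-1α KO). The number of genes past 2-fold followed the UMI minimum and the number of genes tested. It was 590 higher and 349 lower with at least 20 UMIs, 76 and 30 with at least 100 UMIs, and 1145 and 1880 with no minimum, where the lower genes were the more numerous. With members thinned to 1000 UMIs it was 76 and 19 of 1466 genes tested, in members with 1500 to 4000 UMIs 123 and 33 of 2605, and at a fold of 1.5 it was 823 and 286 of 4423. The other scalings left 202 and 204 genes higher and 90 and 85 lower. Of 35 named genes past 2-fold, Meg3 reversed in members with 1500 to 4000 UMIs (-0.29), and 10 further values, of Meg3, Nrg1, Erbb3, Diaph3, Reg4, Ern2 and Top2a, were under 2-fold in the same direction. Nrg1 was at -0.48 in members with few mesenchymal and immune markers, and Diaph3 at -0.45 in members with 1500 to 4000 UMIs. The cause was not tested. Between 4 and 8 lists had a median above that of all genes, beside 6 as reported. The order of the lists depended on depth: relative to all genes, replication genes were at -0.12 and regenerative and Yap genes at -0.505 with members thinned to 1000 UMIs, and AP-1 genes moved from -0.06 to 1.24 in members with 1500 to 4000 UMIs. The alternatives that left out Fut9 and Fstl4, Gm42418 and AY036118, the highest nucleus, or nuclei outside a range of depth were chosen after seeing the data. No paired analysis was possible because each genotype was 1 pooled library. Depth limits genes below 50 UMIs, and the WT members had the fewer UMIs.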

Other observations

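Members with at least 3 enteroendocrine markers were 3 of 132 in WT and 5 of 199 in HIF-1α KO. They held 32 of 69 UMIs of the potassium channel gene Kcnb2 in WT members and 121 of 158 in HIF-1α KO members, and 12 of 28 and 56 of 63 UMIs of Rimbp2, a scaffold of the secretory active zone. Both genes are among the 7 enteroendocrine markers that picked these nuclei, so their concentration there follows in part from the choice. Outside these 8 nuclei Rimbp2 stood at 53.1 CPM (16 UMIs) in WT and 9.29 CPM (7 UMIs) in HIF-1α KO members.

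Spink4, a peptide of goblet cells, had nearly the same level in the members of both libraries (316 and 309 CPM) but was detected in 21.2% of the former and 56.3% of the latter. The 4 highest nuclei held 47.5% of its WT UMIs and 19.0% of its HIF-1α KO UMIs. Detection was not thinned here, and the HIF-1α KO members were the deeper.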
